A study of Mus musculus with 6 samples.

Results

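The genes described here are 20 cytosolic aminoacyl-tRNA synthetase genes and 14 genes of the ATF4 stress response, 34 of the 49671 genes in the deposited tables. They were taken by gene symbol from a fixed list, and all 34 symbols were present. RNA was sequenced from CD3+ T cells of the spleen of female F1 mice, with 3 libraries of stimulated and 3 of unstimulated cells. The stimulated cells had spent 48 h on bound antibody to CD3 (1 µg/ml) with antibody to CD28 in solution (10 µg/ml), which engage the T cell receptor and its costimulatory receptor. They were cultured in RPMI-1640 with nonessential amino acids added. The unstimulated cells were lysed right after column enrichment with no culture step, so stimulation and culture cannot be told apart. All mice came from C57BL/6 (mus) mothers heterozygous for an Xist deletion and M. m. castaneus (cast) fathers. This cross skews X inactivation in the daughters that carry the deletion, while autosomal genes, which include every gene described here, have a mus and a cast copy. The age of the mice was not given in the sources used here. Replicates are labelled as biological, without saying which animals they came from, so the p-values measure the spread between these libraries.

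Aminoacyl-tRNA synthetases attach each amino acid to its matching tRNA and so supply the ribosome with charged tRNAs. When charged tRNAs run short, the kinase GCN2 (encoded by Eif2ak4) phosphorylates the initiation factor eIF2, general translation slows, and the mRNA of the transcription factor ATF4 is translated more. ATF4 then activates genes of amino acid synthesis and uptake, most cytosolic synthetase genes and its own feedback inhibitors. In T cells this programme is known to respond to the amino acid demand that follows activation. RNA libraries measure transcript levels and show neither eIF2 phosphorylation nor ATF4 protein.

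ATF4 binds DNA with C/EBP proteins at a composite element, searched here as TGATGNAA on both strands (TTNCATCA in reverse). RefSeq promoter windows on GRCm38.p6, from 250 bases before to 50 bases after the start site, were matched by symbol for 26 of the 34 genes. The element was found in the windows of 5 of 12 synthetase genes (Aars, Gars, Iars, Tars and Yars). It was also found for 5 of the 14 ATF4 genes (Asns, Chac1, Nupr1, Pycr1 and Trib3). Counted by window, this was 5 of 12 for the synthetase genes and 5 of 16 for the ATF4 genes. Of all 32851 windows of this length, 3.97% held it. For the further ATF4 targets described below the count was 7 of 30 windows. For the mitochondrial synthetase genes it was 0 of 15 windows, too few to tell from the share over all windows. A match describes letters in the window and is not evidence of binding. Genes with large changes also lacked it, such as Ppp1r15a (log2 fold change -3.35), Sesn2 (2.15), Kars (1.93) and Aldh18a1 (1.89). The windows of Trib3 and Asns are shown because their alleles differed most in response among the genes past that test, that of Chac1 for its large change, and those of Gars and Aars as the synthetase genes with the largest changes. All windows shown hold a match. The matches are in capitals, and each sequence reads 5′ to 3′ on the strand of the gene.
Trib3 (chr2:152344011-152344310, minus strand): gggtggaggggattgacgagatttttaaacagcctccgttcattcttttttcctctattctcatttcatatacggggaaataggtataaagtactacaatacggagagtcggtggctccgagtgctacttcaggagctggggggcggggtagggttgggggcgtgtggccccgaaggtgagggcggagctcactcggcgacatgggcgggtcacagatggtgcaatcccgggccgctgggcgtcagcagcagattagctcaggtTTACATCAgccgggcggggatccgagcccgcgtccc
Asns (chr6:7693160-7693459, minus strand): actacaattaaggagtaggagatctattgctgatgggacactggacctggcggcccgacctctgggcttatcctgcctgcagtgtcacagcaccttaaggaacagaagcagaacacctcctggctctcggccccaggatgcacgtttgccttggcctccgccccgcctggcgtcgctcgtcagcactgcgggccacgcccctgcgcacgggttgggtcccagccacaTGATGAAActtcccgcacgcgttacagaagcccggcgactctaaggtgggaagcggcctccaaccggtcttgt
Chac1 (chr2:119350992-119351291, plus strand): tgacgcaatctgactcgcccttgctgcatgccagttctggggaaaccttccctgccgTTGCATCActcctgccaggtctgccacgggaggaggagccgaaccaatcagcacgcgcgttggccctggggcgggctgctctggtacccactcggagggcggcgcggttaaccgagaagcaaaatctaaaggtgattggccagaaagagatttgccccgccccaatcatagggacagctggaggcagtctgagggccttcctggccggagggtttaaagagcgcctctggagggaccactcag
Gars (chr6:55037751-55038050, plus strand): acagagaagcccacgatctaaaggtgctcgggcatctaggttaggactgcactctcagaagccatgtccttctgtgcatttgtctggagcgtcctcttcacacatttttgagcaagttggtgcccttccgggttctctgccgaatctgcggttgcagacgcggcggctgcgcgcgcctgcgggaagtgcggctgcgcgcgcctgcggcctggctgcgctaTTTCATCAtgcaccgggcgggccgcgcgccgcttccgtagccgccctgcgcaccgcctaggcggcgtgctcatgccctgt
Aars (chr8:111033592-111033891, plus strand): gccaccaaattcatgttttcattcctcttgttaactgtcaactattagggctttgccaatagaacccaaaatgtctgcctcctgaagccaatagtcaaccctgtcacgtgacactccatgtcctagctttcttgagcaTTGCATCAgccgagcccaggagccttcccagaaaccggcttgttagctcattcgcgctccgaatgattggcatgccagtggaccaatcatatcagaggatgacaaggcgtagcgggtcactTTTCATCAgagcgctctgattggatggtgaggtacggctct
In the Asns window the match began 23 bases before the start site, in the Gars window 30 bases before it and in the Chac1 window 193 bases before it. The Trib3 match began at position 15, counting the start site as 1. Aars was the 1 gene of these with a pair of matches, the upstream one 112 bases before the start.

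Allelic reads numbered 14.9 to 20.2 M in the stimulated libraries and 9.61 to 11.9 M in the unstimulated ones, and the listed genes held 125369 to 159773 and 21704 to 28578 of them. Levels are in RPKM, which scales reads by gene length in kilobases and by sequencing depth in M (mega). T cell markers had a summed level of 1008.4 to 1073.5 RPKM in stimulated cells and 942.7 to 1142.6 RPKM in unstimulated cells, so the labelled cell type was present in both. Of these 12 markers, 3 were higher and 6 lower in stimulated cells. Markers of other cells were lower in the stimulated libraries for 10 of 10 B cell, 10 of 10 myeloid and 6 of 6 NK cell genes. Over all genes tested, 31.2% were higher and 48.9% lower, and the T cell counts are near those shares. The summed B cell markers ran from 60.6 to 115.7 RPKM in stimulated and from 718.2 to 1101.4 RPKM in unstimulated libraries. The myeloid markers ran from 3.09 to 5.03 RPKM against 1142.4 to 3356.9 RPKM, with Adgre1 at 0 in every stimulated library. NK cell markers summed to 10.2 to 15.1 RPKM in stimulated and 244.3 to 342.8 RPKM in unstimulated libraries. Markers of erythroid cells and platelets summed to 2.03 to 14.6 RPKM in stimulated and 80.6 to 1339.8 RPKM in unstimulated libraries, and 6 of 7 tested were lower. Unstimulated replicate 3 stood apart, with the highest level of the 3 unstimulated libraries for 18 of the 20 synthetase genes. This was not particular to them. The median log2(RPKM + 1) of all genes tested was 3.09 there, against 2.92 and 2.96 in unstimulated replicates 1 and 2. The share of all genes that were highest in this library was not counted. The same library had the highest summed B cell (1101.4 RPKM), myeloid (3356.9 RPKM), NK cell (342.8 RPKM) and erythroid and platelet (1339.8 RPKM) markers of all 6, and the lowest T cell sum (942.7 RPKM). The part of other cell types and of this library in the differences between groups was not tested, and results without the library are given where they change. In bulk RNA, fewer cells of a type and less RNA per cell cannot be told apart.

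All 20 cytosolic synthetase genes rose with stimulation, by 1.84-fold (Farsa) to 6.37-fold (Aars) in mean RPKM, with a median of 3.65-fold. Each of them passed limma's moderated test on log2(RPKM + 1), with Benjamini-Hochberg adjusted p-values from 1.68e-06 (Gars) to 0.000286 (Hars) over the 13288 genes tested. Of all genes tested, 80.1% passed in either direction and 31.2% were higher in stimulated cells. A change of at least 2-fold, 1 on the log2 scale, was reached by 18 of the 20, against 12.4% of all genes. Their median log2 fold change was 1.82, while the median over all genes was -0.24. Stimulated and unstimulated values did not overlap for any of the 20, and non-overlapping higher values were found for 32.7% of all genes. Summed over the 20 genes, the level was 1096.4, 1101.7 and 1044.3 RPKM in the stimulated libraries, against 272.3, 287.5 and 337.3 RPKM in the unstimulated ones. All 20 also passed without any 1 of the 6 libraries.

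**Figure D1:**
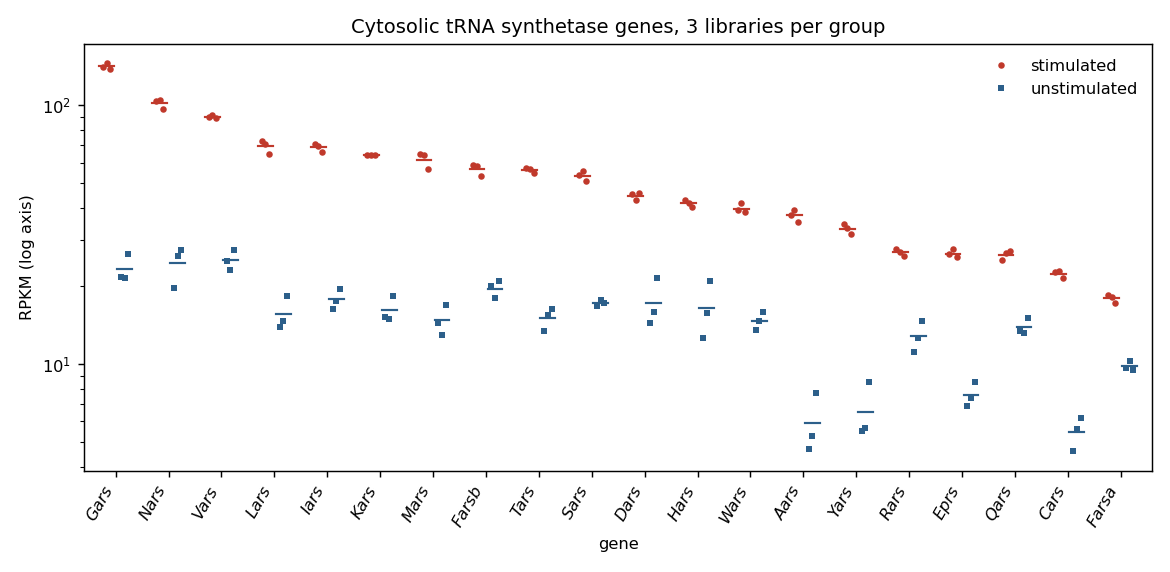
RPKM (log axis) of the 20 cytosolic tRNA synthetase genes in each library, ordered by stimulated mean. Circles are the 3 stimulated and squares the 3 unstimulated libraries, and lines are group means. The stimulated values lie above the unstimulated ones for every gene, from 141.3 RPKM on average for Gars to 18 RPKM for Farsa.

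Of the 20 enzymes, 8 belong to the multisynthetase complex of mammals, a cytosolic assembly of synthetases held together by scaffold proteins. Lars, the leucyl enzyme, had 72.4, 70.7 and 64.9 RPKM in stimulated cells, against 13.9, 14.6 and 18.3 RPKM in unstimulated cells (log2 2.09). Mars, the methionyl enzyme, had 64.5, 63.9 and 56.5 RPKM, against 14.4, 12.9 and 16.9 RPKM in unstimulated cells (log2 2). Kars, which encodes both the cytosolic and the mitochondrial lysyl enzyme, had 64.4, 64 and 64.3 RPKM, against 15.2, 14.9 and 18.3 RPKM in unstimulated cells (log2 1.93). These 3 genes were the furthest apart between groups within the complex, and the stimulated replicates lay closest together for Kars. Iars, the isoleucyl enzyme, had 70.5, 69.7 and 66 RPKM in stimulated cells, against 16.3, 17.5 and 19.5 RPKM in unstimulated cells (log2 1.9). Eprs, whose product charges both glutamate and proline tRNAs, had 26.5, 27.7 and 25.8 RPKM, against 6.85, 7.35 and 8.53 RPKM in unstimulated cells (log2 1.7). Dars, the aspartyl enzyme, had 45.2, 43.1 and 45.6 RPKM, against 14.4, 15.8 and 21.5 RPKM in unstimulated cells (log2 1.34). Unstimulated replicate 3 was the highest unstimulated library for each of these 6. Rars, the arginyl enzyme, had 27.8, 27 and 26.2 RPKM in stimulated cells, against 11.1, 12.6 and 14.6 RPKM in unstimulated cells (log2 1.03). Qars, the glutaminyl enzyme, was the member of the complex that rose least, to 26.4 ± 1.07 RPKM in stimulated cells, against 13.9 ± 0.995 RPKM in unstimulated cells (SD, n = 3 each, log2 0.88). The median log2 fold change was 1.8 over these 8 genes and 1.82 over the other 12. A pseudogene, Gm4849, shares 2251 aligned transcript bases with Iars at 94.7% identity, so reads could be split between them.

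The scaffold genes of the complex rose with it, all 3 of them. Eef1e1 (also known as AIMP3) averaged 66.7 ± 4.29 RPKM in stimulated and 15.3 ± 1.77 RPKM in unstimulated cells (SD, n = 3 each, log2 2.06). Aimp2 averaged 22.7 ± 0.686 and 7.72 ± 0.885 RPKM in stimulated and unstimulated cells (log2 1.45). Aimp1 averaged 6.78 ± 0.179 RPKM in stimulated and 3.48 ± 0.248 RPKM in unstimulated cells (log2 0.8, SD, n = 3 each). These counts stand against 31.2% higher over all genes.

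Among the 12 synthetases outside the complex, the glycyl and alanyl enzymes changed most. Gars, which encodes the glycyl enzyme of cytosol and mitochondria, had 140.5, 145.1 and 138.2 RPKM in stimulated cells, against 21.7, 21.5 and 26.6 RPKM in unstimulated cells (log2 2.56, SE 0.089). It was the most abundant synthetase transcript per length after stimulation and ranked 3 in unstimulated cells. Aars, the alanyl enzyme, had 37.7, 39.3 and 35.4 RPKM, against 4.69, 5.27 and 7.68 RPKM in unstimulated cells (log2 2.51, SE 0.16). Part of the annotated Aars exons, 1326 bases, is shared with Exosc6 on the same strand, so its value may include reads of that gene. Yars, the tyrosyl enzyme, had 34.7, 33.5 and 31.7 RPKM, against 5.48, 5.62 and 8.46 RPKM in unstimulated cells (log2 2.21). Cars, the cysteinyl enzyme, had 22.6, 22.8 and 21.4 RPKM, against 4.59, 5.61 and 6.16 RPKM in unstimulated cells (log2 1.86). For Aars and Yars the unstimulated libraries were uneven, replicate 3 being well above the other 2.

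Nars, the asparaginyl enzyme, had 103.9, 105 and 96.7 RPKM in stimulated cells, against 19.7, 26 and 27.6 RPKM in unstimulated cells (log2 2.03). This rise rests on the RPKM table. The Nars reads that could be assigned to an allele numbered only 58 to 81 in stimulated and 54 to 67 in unstimulated libraries. Tested on those reads with edgeR, the log2 value was -0.16 (adjusted p = 0.628). Per M allelic reads, the cast copy averaged 2.06 in stimulated and 2.87 in unstimulated cells, and the mus copy 2.06 and 2.58. RPKM and allelic reads thus disagree for Nars, and the cause was not tested. Vars, the valyl enzyme, had 90, 91.5 and 89.2 RPKM, against 24.9, 23 and 27.6 RPKM in unstimulated cells (log2 1.81). Tars, the threonyl enzyme, had 56.9, 56.5 and 54.6 RPKM, against 13.4, 15.5 and 16.3 RPKM in unstimulated cells (log2 1.83). Vars was the most abundant synthetase transcript per length in unstimulated cells and ranked 3 after stimulation. Sars, the seryl enzyme, had 53.9, 55.4 and 51 RPKM, against 16.7, 17.7 and 17.1 RPKM in unstimulated cells (log2 1.58). Wars, the tryptophanyl enzyme, had 39.2, 41.7 and 38.5 RPKM, against 13.5, 14.6 and 15.9 RPKM in unstimulated cells (log2 1.38). Hars, the histidyl enzyme, had 43, 41.7 and 40.5 RPKM, against 12.6, 15.7 and 20.9 RPKM in unstimulated cells (log2 1.32). Its unstimulated libraries were the most spread of these 3 genes, again with replicate 3 highest. Exons of Hars overlap those of Hars2, the gene of the mitochondrial enzyme, by 195 bases on the opposite strand.

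Phenylalanyl-tRNA synthetase is built from alpha subunits (Farsa) and beta subunits (Farsb) in equal number, and their transcripts changed unequally. Farsb had 58.9, 58.2 and 53.2 RPKM in stimulated cells, against 19.9, 17.9 and 20.8 RPKM in unstimulated cells (log2 1.49). Farsa averaged 18 ± 0.664 RPKM in stimulated and 9.75 ± 0.363 RPKM in unstimulated cells (SD, n = 3 each), the smallest change of the 20 (log2 0.82, SE 0.059). Exons of Farsb overlap those of Sgpp2 by 248 bases on the opposite strand. The RPKM ratio of Farsb to Farsa was therefore 3.18, 3.21 and 3.09 in the stimulated libraries, against 2.07, 1.76 and 2.19 in the unstimulated ones. The 2 ranges do not overlap. Across the 20 genes, the highest stimulated mean was 7.86 times the lowest and the highest unstimulated mean 4.61 times the lowest. For these 20 genes replicates were tighter after stimulation, with a median SD of 3.67% of the mean, against 11.9% in unstimulated cells. The spread over all genes was not computed, and unstimulated replicate 3 stood apart as given above.

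The genes of mitochondrial synthetases, encoded in the nucleus, moved in both directions. Of 17 tested, 7 rose, 3 fell and 7 did not pass, beside 31.2% higher and 48.9% lower over all genes. None reached a log2 change of 1, and the median log2 fold change was 0.21. Yars2, the tyrosyl enzyme, averaged 9.2 ± 0.727 RPKM in stimulated and 5.13 ± 0.529 RPKM in unstimulated cells (SD, n = 3 each, log2 0.74). Fars2, the phenylalanyl enzyme, fell to 5.71 ± 0.0758 RPKM in stimulated cells, against 10.8 ± 2.26 RPKM in unstimulated cells (SD, n = 3 each, log2 -0.79). Summed, this list stood at 95.2 to 99.9 RPKM in stimulated and 77.5 to 92.2 RPKM in unstimulated libraries. The difference between the cytosolic and the mitochondrial list was not tested, and the values are side by side in the plot of changes by list.

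**Figure D2:**
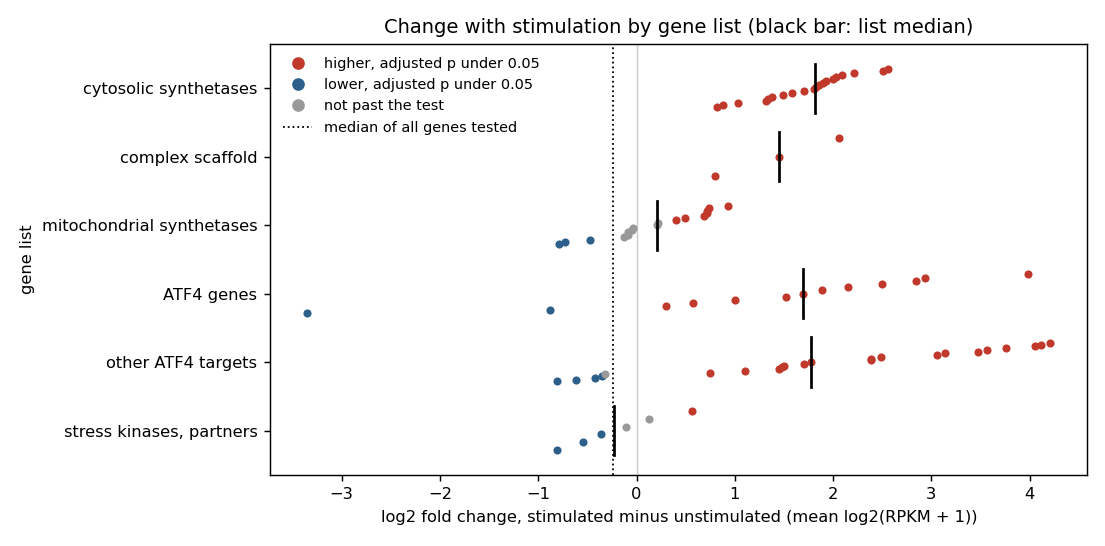
Log2 fold change (stimulated minus unstimulated, mean log2(RPKM + 1)) of each tested gene, by list. Red points passed the test as higher, blue as lower and grey did not pass, black bars are list medians and the dotted line is the median of all genes tested (-0.24). The cytosolic synthetases all lie to the right of 0.8, while the mitochondrial ones spread around 0.

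Of the 14 ATF4 genes, 13 reached the level needed for testing, of which 11 rose and 2 fell. Of all genes tested, 31.2% rose and 48.9% fell. At least 2-fold changes were reached by 9 that rose (12.4% of all genes) and by 1 that fell (24.4% of all genes). The median log2 fold change was 1.69. The exception in level was Nupr1, a small stress-induced nuclear protein, with 0.839, 0.749 and 0.875 RPKM in stimulated and 0.389, 0.375 and 0.582 RPKM in unstimulated cells. It lay under the minimum of 1 RPKM in every library and was not tested.

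**Figure D3:**
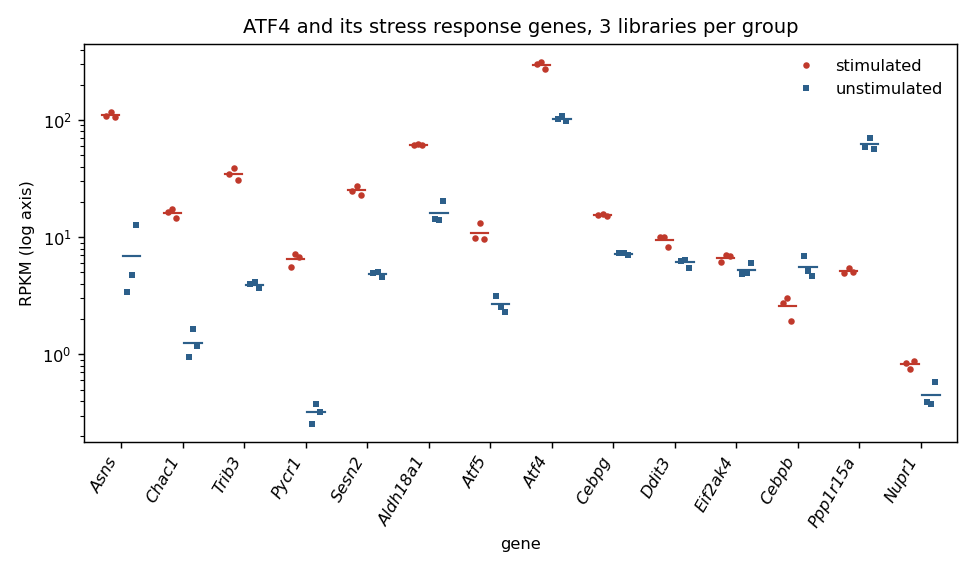
RPKM (log axis) of the 14 genes of the ATF4 response in each library, ordered by log2 fold change, with the untested Nupr1 last. Circles are the 3 stimulated and squares the 3 unstimulated libraries, and lines are group means. Asns, Chac1 and Trib3 rose most on the log2(RPKM + 1) scale used for the order. By the ratio of means Pycr1 rose most (20.4), ahead of Asns (15.8). Ppp1r15a and Cebpb lie lower in stimulated cells.

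The transcription factors of the response mostly rose. Atf4 had 300.2, 312.6 and 275 RPKM in stimulated cells, against 101.5, 107.3 and 98.2 RPKM in unstimulated cells (log2 1.52, SE 0.073, limma adjusted p = 4.85e-06). It was the most abundant transcript per length among all 34 genes in both groups. Atf5, a related bZIP factor whose mRNA is also translated more under eIF2 phosphorylation, had 9.92, 13.1 and 9.61 RPKM, against 3.16, 2.54 and 2.29 RPKM in unstimulated cells (log2 1.69). Cebpg, a C/EBP partner of ATF4, had 15.5, 15.8 and 15.3 RPKM, against 7.34, 7.36 and 7 RPKM in unstimulated cells (log2 1). The groups were far apart for these 3 relative to the spread of their replicates.

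Ddit3, which encodes the pro-apoptotic factor CHOP, changed least of the factors that passed. It averaged 9.5 ± 1.06 RPKM in stimulated and 6.08 ± 0.513 RPKM in unstimulated cells (SD, n = 3 each, log2 0.57, limma adjusted p = 0.00175). On summed allelic reads, 119 to 130 per stimulated and 60 to 89 per unstimulated library, it did not pass (edgeR log2 0.28, adjusted p = 0.245). Its exons overlap those of Mars on the opposite strand by 68 bases, and the strand setting of the counting is not given in the sources used here. Cebpb, another C/EBP factor, went the other way, with 2.75, 3.04 and 1.94 RPKM in stimulated cells, against 6.94, 5.14 and 4.64 RPKM in unstimulated cells (log2 -0.88, limma adjusted p = 0.00282). After quantile normalisation it did not pass (limma log2 -0.47, adjusted p = 0.0842). Cebpb is also expressed in myeloid cells, whose markers were lower in stimulated libraries as given above. Its exons overlap those of Tmem189 by 312 bases on the opposite strand. The part of either in its level was not tested.

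The 4 genes of amino acid and glutathione metabolism all rose. Asns, asparagine synthetase, had 107.8, 116.1 and 107.2 RPKM in stimulated cells, against 3.42, 4.8 and 12.7 RPKM in unstimulated cells (log2 3.98, SE 0.39, limma adjusted p = 9.64e-05). Unstimulated replicate 3 was well above the other 2 for Asns, as for Aars and Yars, and still far below any stimulated library. Pycr1, a mitochondrial enzyme of proline synthesis, had 5.57, 7.18 and 6.74 RPKM, against 0.256, 0.379 and 0.321 RPKM in unstimulated cells. The ratio of means was 20.4, the largest of the 34, but the log2 fold change on the log2(RPKM + 1) scale was 2.5, since the added 1 compresses changes of low genes. Aldh18a1, which catalyses the opening step of proline synthesis, had 60.8, 62.8 and 61.3 RPKM, against 14.4, 13.9 and 20.3 RPKM in unstimulated cells (log2 1.89). Chac1, which degrades glutathione, had 16.4, 17.5 and 14.7 RPKM, against 0.951, 1.63 and 1.18 RPKM in unstimulated cells (log2 2.94). These 4 genes had stimulated values several times the highest unstimulated one.

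Feedback and signalling genes of the pathway split. Trib3, a pseudokinase that restrains ATF4 activity, had 34.3, 38.6 and 31 RPKM in stimulated cells, against 4.02, 4.12 and 3.69 RPKM in unstimulated cells (log2 2.84, SE 0.091, limma adjusted p = 1.26e-06). Sesn2, a leucine sensor that inhibits mTORC1, had 24.6, 27.4 and 23.1 RPKM, against 4.93, 5.06 and 4.59 RPKM in unstimulated cells (log2 2.15). Ppp1r15a, which encodes GADD34, the subunit that directs a phosphatase to eIF2, had 4.98, 5.46 and 5.06 RPKM, against 58.4, 70.6 and 57.1 RPKM in unstimulated cells. It fell by 3.35 on the log2 scale (SE 0.092, limma adjusted p = 7.72e-07), opposite to Trib3 and Sesn2, with groups far apart. On summed allelic reads, which numbered 459 to 627 in stimulated and 3430 to 3699 in unstimulated libraries, it was also lower.

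Eif2ak4, the gene of GCN2, had 6.11, 6.98 and 6.9 RPKM in stimulated cells, against 4.83, 4.92 and 6.03 RPKM in unstimulated cells (log2 0.3, SE 0.099, limma adjusted p = 0.0293). The lowest stimulated and the highest unstimulated library nearly touched, and the change did not pass in 4 of 6 fits that left out 1 library. Without stimulated replicates 2 and 3 the limma adjusted p was 0.0997 and 0.091, and without unstimulated replicates 1 and 2 it was 0.0801 and 0.0817. Of 6 other genes around eIF2 phosphorylation, 1 rose, 3 fell and 2 did not pass, which is near the 31.2% higher and 48.9% lower over all genes. Eif2ak3, the kinase PERK of the endoplasmic reticulum, averaged 6.8 ± 0.176 RPKM in stimulated and 12.7 ± 0.45 RPKM in unstimulated cells (SD, n = 3 each, log2 -0.81). Eif2ak1, the heme-regulated kinase, fell to 7.72 ± 0.161 RPKM in stimulated cells, against 11.8 ± 2.79 RPKM in unstimulated cells (SD, n = 3 each, log2 -0.54). Gcn1l1, which encodes the activator of GCN2, rose to 18.4 ± 0.668 RPKM in stimulated cells, against 12.2 ± 0.884 RPKM in unstimulated cells (SD, n = 3 each, log2 0.56).

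A list of 26 further genes known as ATF4 targets was read beside these, of which 23 were tested, 18 rose and 4 fell, beside 31.2% higher and 48.9% lower over all genes. The median log2 fold change was 1.78, and 17 rose at least 2-fold, which 12.4% of all genes did. On the log2(RPKM + 1) scale Psat1, an aminotransferase of serine synthesis, had the largest change, with an average of 115.3 ± 3.87 RPKM in stimulated and 5.29 ± 0.633 RPKM in unstimulated cells (SD, n = 3 each, log2 4.21). Cth, which makes cysteine from cystathionine, averaged 18.5 ± 1.52 RPKM in stimulated and 0.118 ± 0.0564 RPKM in unstimulated cells (log2 4.12). By the ratio of means Cth was further apart, at 156.8, against 21.8 for Psat1. Slc7a5, the light chain of the leucine transporter LAT1, averaged 251.9 ± 15.1 RPKM in stimulated and 14.4 ± 2.76 RPKM in unstimulated cells (log2 4.05). The 4 that fell were Sqstm1 (log2 -0.81), Jdp2 (-0.62), Herpud1 (-0.42) and Gtpbp2 (-0.35), none by 2-fold and all named after their values were seen. Many of these genes are also controlled by other factors, and membership in the list says nothing about which acted here.

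The allelic tables allowed each gene's mus and cast copies to be followed separately. Of the 34 genes, 32 had at least 30 allelic reads in each group. Vars had 0 to 6 allelic reads per library and Cebpb 0 to 6, so a difference between their alleles was not detectable at this depth. The response of the alleles differed for 3 genes (edgeR quasi-likelihood, allele by group, adjusted over 12470 autosomal genes), against 10.4% of those genes. The count of 3 in 32 is near that share, so nothing is read from it for the list as a whole. At an unadjusted p under 0.05 there were 6. The share of all autosomal genes at that threshold was not counted, so nothing is read from the 6. Shares below carry 95% exact Clopper-Pearson intervals that cover counting error only.

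Trib3, on chromosome 2 (152337422 to 152344032, mm10), had the largest difference. Its cast share was 57.3%, 57.8% and 60.7% in stimulated cells, against 78.1%, 83% and 76.4% in unstimulated cells. The intervals were 55.2% to 59.3% in stimulated replicate 1 and 71.3% to 83.9% in unstimulated replicate 1, and no stimulated interval met an unstimulated one. The log2 ratio of cast to mus changed by -1.41 (edgeR adjusted p = 4.14e-05). The mus copy averaged 65.9 ± 11 reads per M allelic reads in stimulated and 3.22 ± 0.386 in unstimulated cells (SD, n = 3 each), a ratio of 20.5. The cast copy averaged 92.8 ± 10.2 in stimulated and 12.3 ± 1.22 in unstimulated cells (SD, n = 3 each), a ratio of 7.53. Both copies were thus higher in stimulated cells, the mus copy by more, and the cast copy remained the more abundant in all 6 libraries.

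Asns, on chromosome 6 (7675169 to 7693254), showed the same direction. Its cast share was 55.2%, 55.1% and 54.6% in stimulated cells, against 73.6%, 70.6% and 65.5% in unstimulated cells (log2 ratio change -0.86, edgeR adjusted p = 7.91e-05). Unstimulated replicate 3, which had the highest Asns level of its group, also had the share nearest to the stimulated ones. Without that library the change was -1.08 (edgeR adjusted p = 3.08e-05), and without other libraries the adjusted p was at most 0.000814. The mus copy averaged 268.4 ± 10.8 reads per M in stimulated and 10.5 ± 8.32 in unstimulated cells, a ratio of 25.5 (SD, n = 3 each). The cast copy averaged 327.8 ± 15.6 in stimulated and 22.6 ± 13.6 in unstimulated cells, a ratio of 14.5 (SD, n = 3 each). The promoter windows of Trib3 and Asns printed above are those of the reference genome, which is of C57BL/6, and sequence of the cast alleles was not used here.

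Rars, on chromosome 11 (35808381 to 35834506), changed sides. Its cast share was 46.5%, 45.7% and 43.8% in stimulated cells, against 54.7%, 52.4% and 55.5% in unstimulated cells (log2 ratio change -0.52, edgeR adjusted p = 0.00458). It was the only one of the 19 synthetase genes tested to pass. In mean reads per M, the mus copy was 2.71-fold and the cast copy 1.9-fold higher in stimulated cells. With replicate number as a block, all 3 genes passed as well. Atf5 did not pass (log2 ratio change 1.12, edgeR adjusted p = 0.0867), but passed with the block (1.08, edgeR adjusted p = 0.0453) and without unstimulated replicate 2 (1.54, edgeR adjusted p = 0.0193). Its unstimulated shares were uneven, at 34.1%, 54.1% and 22.2% on 37 to 82 reads, against 50.3%, 56.7% and 56.9% in stimulated cells. Sesn2, with 63.3%, 64.1% and 64.6% cast in stimulated cells and 59.3%, 58.8% and 56.6% in unstimulated cells, did not pass (log2 ratio change 0.35, edgeR adjusted p = 0.0573). Its groups did not overlap in share.

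**Figure D4:**
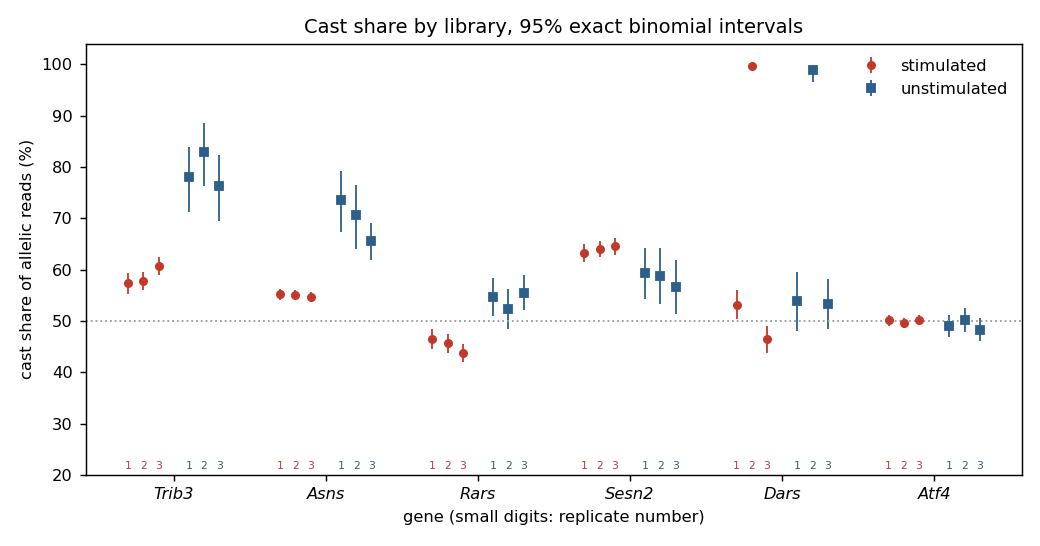
Cast share of allelic reads (%) of 6 genes in each library, with 95% exact binomial intervals and the replicate number below each point. Circles are stimulated and squares unstimulated libraries, and the dotted line marks 50%. Trib3 and Asns lie lower after stimulation, Rars moves across 50%, Atf4 stays near it, and Dars is near 100% in replicate 2 of both groups.

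Averaged over the 6 libraries, 13 of the 32 genes differed between alleles, 7 with more cast and 6 with more mus reads. Of all autosomal genes tested, 43.4% differed, 17.4% toward cast and 26% toward mus, so the list was close to the background. More cast reads were found for Trib3 (log2 cast over mus 1.21), Asns (0.72), Sesn2 (0.65), Kars (0.34), Mars (0.32), Qars (0.21) and Yars (0.19). The Qars call was lost without stimulated replicate 2 or 3 or unstimulated replicate 2 (edgeR adjusted p = 0.0551, 0.069 and 0.0655). With TMM per allele column, 11 genes had more cast reads. The share of all autosomal genes toward cast in that setting is not given here, so the 11 cannot be set against 17.4%. More mus reads were found for Nupr1 (log2 -1.54), Sars (-0.57), Hars (-0.42), Gars (-0.2), Aldh18a1 (-0.2) and Ppp1r15a (-0.18). The Nupr1 value rests on 72 to 96 allelic reads per stimulated and 18 to 36 per unstimulated library. Its cast share ran from 15.4% to 44.4%. The Ppp1r15a call was lost in 5 of 6 fits that left out 1 library, all but that without stimulated replicate 3, with edgeR adjusted p-values of 0.0529 to 0.176, and with TMM per allele column (0.183). Sars was among the clearer cases, with cast shares of 35.2%, 41% and 42.1% in stimulated and 39.5%, 40.8% and 42.3% in unstimulated cells. Atf4 was balanced, with 49.9% ± 0.34 in stimulated and 49.2% ± 0.95 in unstimulated cells (SD, n = 3 each, log2 -0.03, edgeR adjusted p = 0.516). The median distance from equal alleles was 0.16 on the log2 scale, against 0.25 over all autosomal genes tested. How reads were assigned to alleles is not given in the sources used here, and any bias of that step would be part of these levels.

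Dars, on chromosome 1 (128363707 to 128417368), set replicate 2 apart in both groups. Its cast share was 53.2%, 99.7% and 46.5% in stimulated replicates 1, 2 and 3, against 53.8%, 99% and 53.3% in unstimulated replicates 1, 2 and 3. Its total level was not unusual in replicate 2, at 43.1 RPKM stimulated and 15.8 RPKM unstimulated. Of the other genes within 500 kb that had 30 or more allelic reads in each of the 6 libraries, Cxcr4 and Gm37588 showed the same in replicate 2. Cxcr4 stood at 100% stimulated and 99.7% unstimulated there, against 28.9% to 40.1% in the other libraries. Ubxn4, between Gm37588 and Dars, did not, with 48.1% and 49.8% in stimulated and unstimulated replicate 2. The averaged level of Dars, log2 1.13, did not pass (edgeR adjusted p = 0.156), but passed at 2.75 with the replicate block (edgeR adjusted p = 1.17e-24). Without replicate 2 of either group it was 0.1 (edgeR adjusted p = 0.497), an alternative chosen after the shares were seen. Rab3gap1, Zranb3 and R3hdm1, also nearby, had cast shares of 56.8% to 66.7% in replicate 2 of both groups, against 44.3% to 52.4% in the other libraries. The cause was not tested.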

How the data were processed

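RNA was sequenced from 3 stimulated and 3 unstimulated samples of CD3+ T cells, with an Illumina TruSeq stranded total RNA kit that depletes ribosomal RNA, per the labels' protocols. STAR 2.7.1a, featureCounts (version not given) and the mm10 build are named in the submitters' processing notes. One deposited table holds RPKM per gene for both alleles together, and the other holds whole-number counts of reads assigned to the mus or cast allele, per the file headers. The sources used here do not give the allele assignment, the annotation, the strand setting or the denominator of RPKM (reads per kilobase and per M reads).

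Levels were compared with limma 3.58.1 (R 4.3.3) on log2(RPKM + 1), over 13288 genes with at least 1 RPKM in at least 3 libraries. Fold changes on this scale understate changes of low genes. Allelic counts were fitted with edgeR 4.0.16 (quasi-likelihood), with 1 term per library, an allele term and an allele by group term, over the 12470 genes on autosomes that had 30 or more allelic reads in each group. Benjamini-Hochberg adjustment ran over all genes tested, at a threshold of 0.05, and the models were tested on simulated data. Alternatives were other pseudocounts, filters and scalings, edgeR and DESeq2 1.42.0 on mus plus cast counts, a replicate block and leaving out each library.

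The groups share replicate numbers. Deviations of same-numbered libraries in log2(RPKM + 1) correlated at 0.00603, 0.0611 and 0.0908. These values show no pairing in levels, but they cannot show that the samples were unpaired. For the autosomal log2 cast to mus ratio, over 9043 genes, the values were 0.282, 0.298 and 0.182, all over 0.1. Libraries with different numbers correlated at -0.221 to -0.0664 in this ratio. Whether same-numbered libraries came from the same animals was not tested. The main allelic fits had no block, and the block is given beside allelic results that it changes.

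All 34 genes are named. Values per library are given for those with a log2 change of at least 1, those that fell, Atf4 and Eif2ak4, and the 3 largest log2 changes of each other list are given as mean ± SD. Every gene past an allelic test is named, with shares per library for those whose response differed, Atf5, Sesn2, Sars and Dars. One gene that this rule names among the mitochondrial synthetases is not reported here. The genes, lists and tests were chosen with earlier results of these data known. Gene positions and exon overlaps are from GENCODE M21 (mm10), and promoter sequences are from RefSeq (GRCm38.p6).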

Additional observations from a re-analysis of the deposited data

Results flagged for a closer look

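The stimulation response of the cast and mus alleles differed, by the test of the allele by group term, for Trib3 (log2 ratio change -1.41), Asns (-0.86) and Rars (-0.52). In each of the 3 the ratio of stimulated to unstimulated reads was larger for the mus copy than for the cast copy.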

How the results depend on the processing

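Of 518 level changes of single genes under the alternatives, 507 kept their direction and side of the threshold, 8 lost the threshold (Ddit3 in 3, Cebpb in 1, Eif2ak4 in 4) and 3 reversed. The 3 were Nars on mus plus cast counts, at -0.16 (edgeR TMM), -0.41 (edgeR library sizes) and -0.18 (DESeq2). Leaving out 1 library gave 29 to 31 genes higher, 2 lower and all 20 synthetases higher. Over all genes it gave 3464 to 4465 higher and 4522 to 6168 lower. Genes that were lower numbered 1 at the 5 RPKM minimum, with quantile normalisation and with each count tool, where Cebpb was not tested or did not pass. At the 5 RPKM minimum, 3877 genes of all tested were lower. After median centring, the mean log2 differences were 1.97 for the synthetases (1.72 as deposited) and 1.51 for the ATF4 genes (1.25), the median of all genes moved from -0.24 to 0.02, and the share of calls that were higher was 51.1%, against 39% (52.5% with quantile normalisation).

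With the replicate block, 31 genes were higher and 2 lower, and it changed no other call among these genes than those of Atf5 and Dars given above. Genes with a stronger response of the cast allele numbered 0, and 1 with the replicate block, at 100 reads, without a filter, and without replicate 2 of both groups, which was chosen after seeing the data. Leaving out libraries gave 0 to 1 here, 3 for the mus allele throughout, and 839 to 1049 over all autosomal genes, against 1300 with all. Of these, 839 was without replicate 2. Sesn2 passed at the 100-read minimum (edgeR adjusted p = 0.0465). The response of Dars, 0.2 with all libraries, was -0.11 with DESeq2, -0.18 with the replicate block and -0.21 without replicate 2, and ran from -1.04 to 1.32 when libraries were left out. Genes with more cast reads numbered 11 with TMM per allele column, against 7, without the share over all genes in that setting. When libraries were left out they numbered 6 to 8, and those with more mus reads 5 to 6. Without replicate 2 of both groups, the edgeR adjusted p was 0.154 for Qars and 0.138 for Ppp1r15a. The causes were not tested. Allelic depth limits Vars, Cebpb, Nars, Nupr1, Ddit3, Atf5, Pycr1 and Chac1. In unstimulated libraries Pycr1 had 19 to 28 allelic reads and Chac1 36 to 46.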
